A study of Homo sapiens with 34 samples.

Results

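The enzymes that supply NADPH apart from the pentose phosphate pathway (PPP) were followed in *Bmal1*:*luc* U2OS cells through 8 genes, namely the malic enzymes *ME1*, *ME2*, and *ME3*, the NADP-linked isocitrate dehydrogenases *IDH1* and *IDH2*, the transhydrogenase *NNT*, and the NAD kinases *NADK* and *NADK2*. They were taken by symbol from the deposited annotation, each matched 1 locus, and together they made up 8 of 28690 loci in the tables. All 8 were among the 15339 expressed loci, set at a mean of at least 0.5 FPKM (fragments per kilobase, scaled to sequencing depth) over the 24 libraries. *ME3* passed that limit narrowly, with means of 0.459 FPKM in control and 0.647 FPKM in 6AN.

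U2OS is a human osteosarcoma line, used here as a line that stably carries a luciferase reporter under the *Bmal1* promoter. Control cultures received DMSO and treated cultures 5 mM 6AN (6-aminonicotinamide, an inhibitor of the PPP), and the study's methods describe dexamethasone synchronization for both. RNA depleted of ribosomal RNA was sequenced at 12 time points per condition, labelled CT00 to CT44 and given below as 0 to 44 hr, with 1 library for each condition and time point. BMAL1 and CLOCK binding was profiled by ChIP-seq after 24 hr, also with 1 library for each antibody and condition.

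NADPH is the electron donor that cells spend on reductive synthesis and on the reduction of glutathione and thioredoxin. The oxidative PPP is a main cytosolic source. Malic enzymes and the NADP-linked isocitrate dehydrogenases make NADPH from malate and isocitrate, *NNT* uses the proton gradient of the inner mitochondrial membrane to move electrons from NADH to NADP, and NAD kinases make NADP itself from NAD. *ME1*, *IDH1*, and *NADK* products act in the cytosol (IDH1 also in peroxisomes), whereas those of *ME2*, *ME3*, *IDH2*, *NNT*, and *NADK2* are mitochondrial. ME2 differs from its relatives in that it works mainly with NAD.

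Promoter sequence is shown for the 5 genes whose expression differed from control in the same direction at all 12 time points, with capitals marking either CACGTG, the canonical E-box that BMAL1 and CLOCK bind, or TGACNNNGC, the core of the antioxidant response element that NRF2 binds with small MAF partners. The sequences are from RefSeq on build GRCh38.p14, given 5′ to 3′ on the strand of the gene, and cover bases upstream of an annotated start. All 8 genes were found in that table, with 16 start windows of 250 upstream bases. *IDH1* is shown from chr2:208255144-208255321 (minus strand), the bases beyond the deposited locus, and *NADK2* from chr5:36242280-36242529 (minus strand). For *ME1* (chr6:83431170-83431198, minus strand), *NADK* (chr1:1778860-1778889, minus strand), and *NNT* (chr5:43603138-43603167, plus strand), where the motif lies within the deposited locus, only the motif with its flanks is shown.
IDH1: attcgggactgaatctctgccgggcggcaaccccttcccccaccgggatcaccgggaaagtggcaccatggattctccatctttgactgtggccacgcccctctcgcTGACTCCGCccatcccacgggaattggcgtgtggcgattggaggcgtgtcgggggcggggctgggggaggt
ME1: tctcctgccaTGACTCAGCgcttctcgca
NADK2: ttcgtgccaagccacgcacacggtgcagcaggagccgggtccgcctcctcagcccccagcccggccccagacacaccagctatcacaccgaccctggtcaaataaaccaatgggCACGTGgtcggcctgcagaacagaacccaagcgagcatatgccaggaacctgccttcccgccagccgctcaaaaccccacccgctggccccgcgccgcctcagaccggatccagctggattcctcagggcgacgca
NADK: cctgagccggccCACGTGgtccgggaggtc
NNT: cggagctgcagtCACGTGgccgcccgccgc

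Both strands of the 250 upstream bases were searched for the 2 motifs, which share no letters in these windows. TGACNNNGC was present in windows of *IDH1*, 143 to 135 bases before the start, and *ME1*, 137 to 129 bases before it, and 10.9% of all 35116 promoter windows in the table held it. CACGTG, which reads the same on both strands, was present in 5 of the 16 windows, beside 6.34% of all windows. They belonged to *NADK*, *NADK2*, *NNT*, and *ME3*, each of which also had a window without it. It lay 61 bases before the start of its window in *NADK*, 136 in *NADK2*, and 30 in *NNT*, counted to its farthest base. *ME2* and *IDH2* held neither. A match describes the letters only.

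The 2 FPKM tables were normalized separately by the authors, so no test was run between conditions. Values are set side by side, and a gene was called higher or lower in 6AN when it was so at all 12 matched time points. Of all expressed loci, 12.2% (1866) were called higher and 19.2% (2946) lower by this rule, or 2395 and 2508 with each library centred on its median, and 5.44% and 9.57% were higher or lower with no overlap between the 12 control and the 12 6AN values. The median difference of all expressed loci was -0.03 on the log2(FPKM + 1) scale. Depth was not recorded and was estimated from ratios of low FPKM values between libraries. Relative to the median of each table, the estimates ran from 0.581 to 1.299 in control and from 0.703 to 1.559 in 6AN. The clock gene *ARNTL* had a rhythm p of 8.0e-05 in control and 0.0128 in 6AN (permutation rank test), and *NR1D1* had 0.0067 and 0.0158. Both thus missed the rhythm threshold of 0.01 in 6AN. The U2OS label was checked with osteoblast lineage markers. *RUNX2* had means of 14.0 and 13.9 FPKM in control and 6AN, while *COL1A1* had 128 and 33.9 FPKM. The leukocyte, T cell, and endothelial markers *PTPRC*, *CD3E*, *PECAM1*, and *CDH5* were below the expression limit, and the epithelial marker *EPCAM* had a mean of 1.02 FPKM in control. Summed, these markers ranged from 1.28 to 2.87 FPKM in control and from 1.02 to 2.48 FPKM in 6AN. Of the 5 osteoblast markers, 3 were lower and 1 higher in 6AN at all 12 time points, and their sum ranged from 401 to 554 FPKM in control and from 122 to 280 FPKM in 6AN, and the part of this shift in the results below was not tested.

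Of the 8 NADPH source genes, *NADK2* was higher in 6AN at all 12 time points, and *ME1*, *IDH1*, *NADK*, and *NNT* were lower at all 12. *IDH1* and *NNT* were lower with no overlap between conditions, beside 9.57% of all expressed loci. No gene was higher without overlap, beside 5.44% of all expressed loci. With 1 of 8 higher and 4 of 8 lower, against the 12.2% and 19.2% of all loci, the median difference of the group was -0.25 against -0.03 for all loci (log2 scale). When each library was centred on its own median, *IDH1* and *NADK* were each higher in 6AN at 1 of 12 time points, so both lost the call, whereas *ME1*, *NNT*, and *NADK2* did not.

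**Figure D1:**
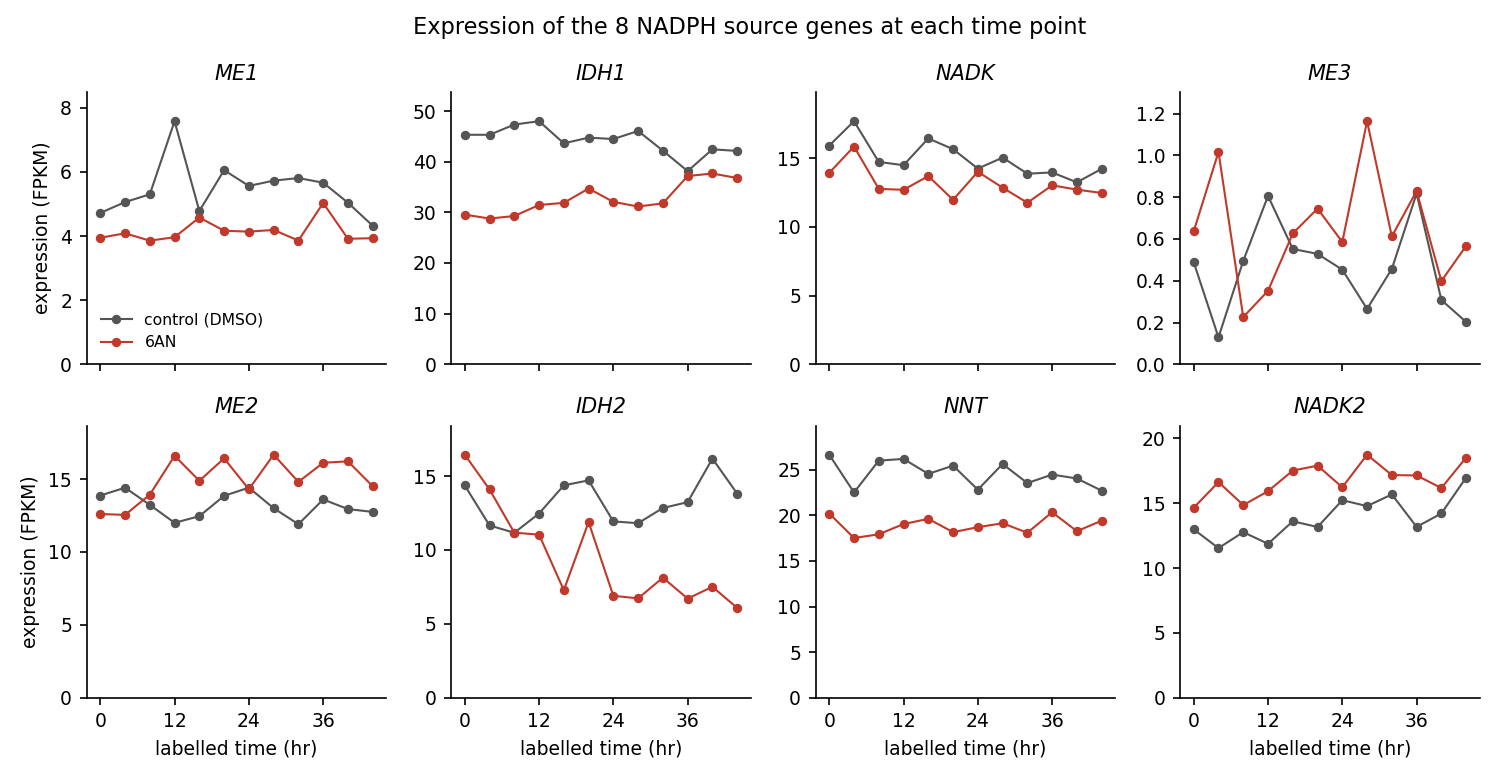
Expression in FPKM (vertical axes, each from 0) of the 8 genes at 12 labelled times in hr (horizontal axes), with 1 library per point, control in grey and 6AN in red. The *IDH1* and *NNT* series do not overlap between conditions, and *IDH2* in 6AN declines from 16.4 to 6.08 FPKM.

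*IDH1* had the highest level of the 8 genes in both conditions. It ranged from 38.1 to 48.0 FPKM in control, with a median of 44.6 FPKM, and from 28.8 to 37.7 FPKM in 6AN, with a median of 31.8 FPKM. Every control library was above every 6AN library, though by a margin of under 1 FPKM between the control value at 36 hr (38.1 FPKM) and the 6AN value at 40 hr (37.7 FPKM). The mean in 6AN was 0.740 times that in control, a log2 difference of -0.43 ± 0.20 (SD over 12 time points). The gap was wide in the first 6 time points, with a mean difference of -0.55, and narrower in the last 6, with -0.30.

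*ME1*, the cytosolic malic enzyme, ranged from 4.32 to 7.59 FPKM in control (median 5.43 FPKM) and from 3.86 to 5.03 FPKM in 6AN (median 4.03 FPKM). It was lower in 6AN at every time point, and the ranges overlapped. The highest control value, at 12 hr, stood apart from the next, 6.06 FPKM at 20 hr. The mean log2 difference was -0.32 ± 0.20 (SD over 12 time points).

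*NADK*, the cytosolic NAD kinase, ranged from 13.2 to 17.7 FPKM in control (median 14.6 FPKM) and from 11.8 to 15.8 FPKM in 6AN (median 12.8 FPKM). The differences were small at every time point, from -0.36 at 20 hr to -0.02 at 24 hr, with a mean of -0.17 ± 0.09 (SD over 12 time points, log2 scale). The highest library was that of 4 hr in both conditions.

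*NNT* was the most abundant of the 5 mitochondrial genes. It ranged from 22.5 to 26.6 FPKM in control (median 24.5 FPKM) and from 17.5 to 20.3 FPKM in 6AN (median 18.9 FPKM), so the conditions did not overlap. The mean log2 difference was -0.36 ± 0.09 (SD over 12 time points). This spread and that of *NADK*, also 0.09, were the narrowest of the 8 genes. An antisense gene, *NNT-AS1*, has its own row, listed with the same locus coordinates, and averaged 5.96 FPKM in control and 8.94 FPKM in 6AN. In RefSeq *NNT-AS1* ends at chr5:43603230, so it reaches only the first part of the *NNT* locus, which runs to chr5:43705566. Whether the libraries kept strand is not given in the sources used here, so reads from *NNT* and its antisense partner cannot be told apart where they overlap.

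*NADK2*, the mitochondrial NAD kinase, went the other way from *NADK*. It ranged from 11.5 to 17.0 FPKM in control (median 13.4 FPKM) and from 14.6 to 18.7 FPKM in 6AN (median 16.9 FPKM). It was higher in 6AN at every matched time point, by 0.09 to 0.49 on the log2 scale, although the ranges of the 2 series overlapped. The mean log2 difference was 0.27 ± 0.14 (SD over 12 time points), at the 82.1 percentile of all expressed loci. The *NADK2* locus overlaps the end of *SKP2* and the antisense *NADK2-AS1*, with the same limit on strand.

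*IDH2*, the mitochondrial counterpart of *IDH1*, ranged from 11.2 to 16.2 FPKM in control (median 13.0 FPKM). In 6AN it measured 16.4, 14.1, 11.2, 11.04, 7.28, 11.9, 6.90, 6.73, 8.13, 6.71, 7.51, and 6.08 FPKM from 0 to 44 hr. It was above control at 0 and 4 hr, level with it at 8 hr (11.2 FPKM in both), and below it at the other 9 time points. The mean log2 difference was -0.15 over the first 6 time points and -0.83 over the last 6. At 44 hr it reached -1.06, the widest gap of the 8 genes at any time point on the log2(FPKM + 1) scale. As a plain ratio, the low *ME3* differed more at 4 hr, with 0.129 FPKM in control and 1.02 FPKM in 6AN.

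*ME2* and *ME3* met no call between conditions. *ME2* ranged from 11.9 to 14.4 FPKM in control (median 13.1 FPKM) and from 12.5 to 16.7 FPKM in 6AN (median 14.8 FPKM). It was higher in 6AN at 9 of 12 time points, all but 0, 4, and 24 hr, with a mean log2 difference of 0.17 ± 0.19 (SD). *ME3* lay between 0.129 and 0.818 FPKM in control and between 0.226 and 1.16 FPKM in 6AN, and its coefficient of variation over time was 46.5% and 41.3%. It was higher in 6AN at 10 of 12 time points, and at this level a log2(FPKM + 1) difference understates a fold change.

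**Figure D2:**
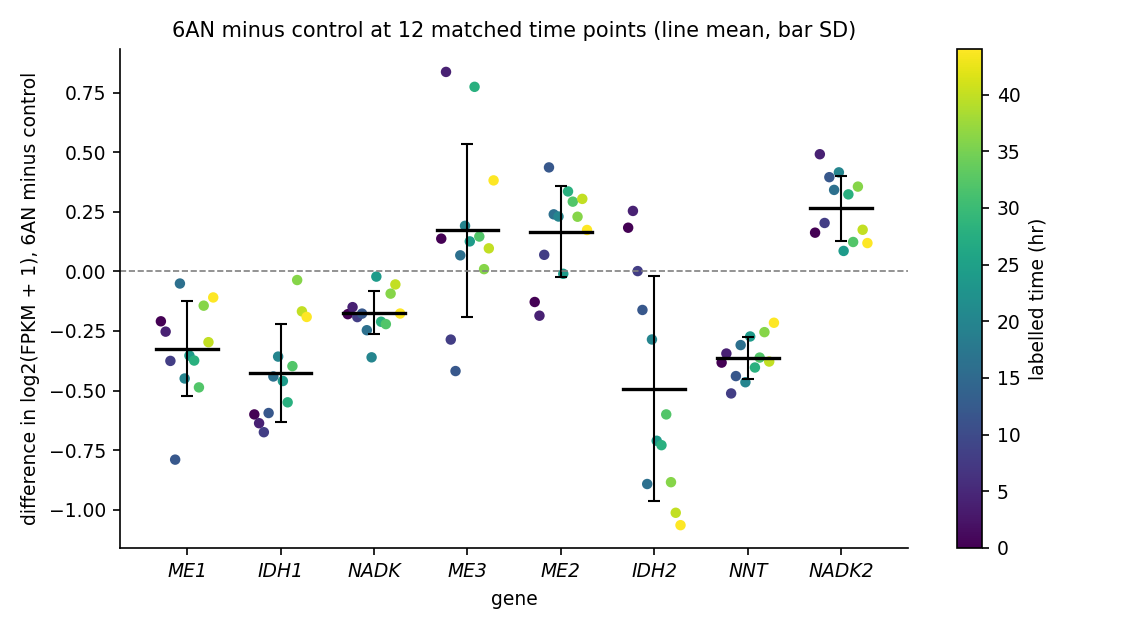
Difference in log2(FPKM + 1) between 6AN and control (vertical axis) for each gene (horizontal axis), with 1 point per matched time point coloured by labelled hr, the mean as a line and the SD over 12 time points as a bar. *ME1*, *IDH1*, *NADK*, and *NNT* lie below 0 at all 12 time points and *NADK2* above 0 at all 12, whereas *IDH2* spans 0.25 to -1.06.

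Since FPKM is a value per length, levels can be ranked between genes. In control the order of the means was *IDH1* (44.1 FPKM), *NNT* (24.5), *NADK* (15.0), *NADK2* (13.8), *IDH2* (13.2), *ME2* (13.2), *ME1* (5.47), and *ME3* (0.459). *NADK*, *NADK2*, *IDH2*, and *ME2* overlapped with their neighbours in that order, and the other steps showed no overlap. In 6AN the order was *IDH1* (32.7 FPKM), *NNT* (18.9), *NADK2* (16.8), *ME2* (15.0), *NADK* (13.1), *IDH2* (9.5), *ME1* (4.14), and *ME3* (0.647). Here every neighbouring pair from *NNT* to *IDH2* overlapped in range. *NNT* was nevertheless above *NADK2* in 12 of 12 libraries, and *NADK* was above *IDH2* in 11 of 12.

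Trends over time were tested within each table by limma on log2(FPKM + 1), with a slope and a 24 hr cosine and sine, and Benjamini-Hochberg adjustment over the 15339 expressed loci. With 1 library per time point, the p-values measure the scatter around the fitted curve in these 12 libraries and not the variation between experiments. In control 2.29% of loci rose and 2.63% fell at the adjusted threshold of 0.05 (352 and 404, or 300 and 522 with each library centred), and in 6AN 9.83% rose and 11.8% fell (1508 and 1806, or 1759 and 1681 with each library centred). Of the 8 genes, 1 rose and 0 fell in control (*NADK2*), and 1 rose (*IDH1*) and 1 fell (*IDH2*) in 6AN.

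*IDH2* fell in 6AN with a slope of -0.62 log2 per 24 hr (SE 0.14, 95% interval -0.93 to -0.32, limma adjusted p = 0.011). In control its slope was 0.01 (95% interval -0.11 to 0.13, adjusted p = 0.953). The adjusted p in 6AN was 0.0501 without the 0 hr library, the highest of the series, and the slope was then -0.55. *IDH1* rose in 6AN by 0.15 log2 per 24 hr (SE 0.03, 95% interval 0.09 to 0.21, limma adjusted p = 0.0057), and stood at -0.09 in control (95% interval -0.18 to -0.003, adjusted p = 0.243). The isoenzymes thus moved in opposite directions within the 6AN table.

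*NADK2* rose in control with a slope of 0.22 log2 per 24 hr (SE 0.05, limma adjusted p = 0.039). This call lay close to the threshold, and the limma adjusted p was 0.057 with the slope alone. It missed the threshold in 10 of 12 fits that left out 1 library, reaching 0.123 without 44 hr, with slopes from 0.19 to 0.25. In 6AN the slope of *NADK2* was 0.12 (95% interval -0.0005 to 0.23, adjusted p = 0.145). *ME1*, *ME2*, *ME3*, *NNT*, and *NADK* passed in neither table. Their slopes lay between -0.13 (*NADK* in control) and 0.10 (*ME3* in 6AN). With a pseudocount of 0.1 in place of 1, the slopes of the low *ME3* were -0.32 in control and 0.25 in 6AN. Whether slopes differ between the conditions was not tested, because the tables were normalized separately.

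**Figure D3:**
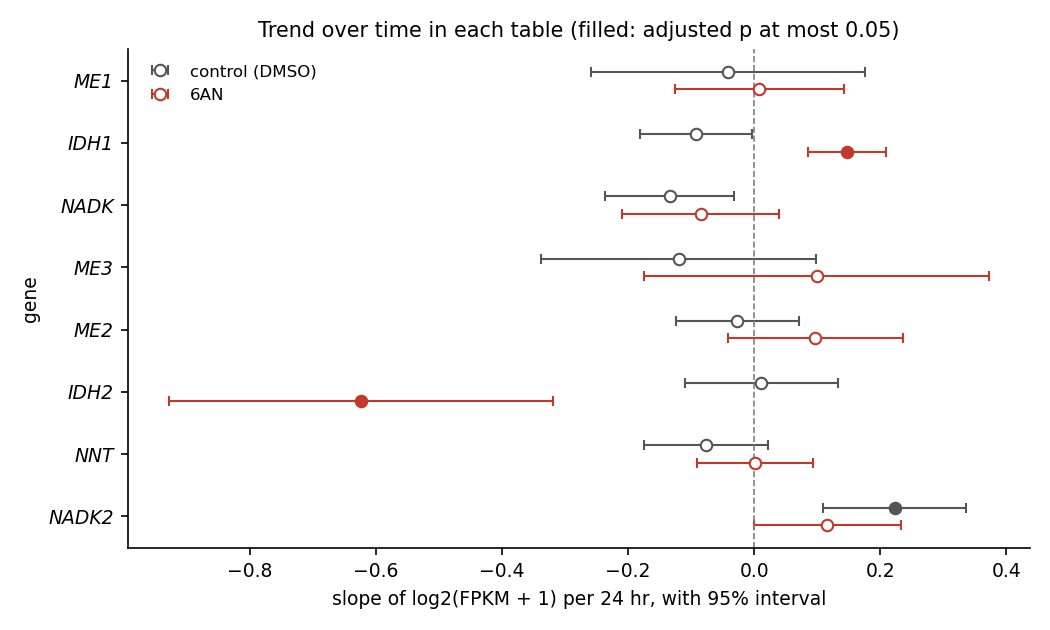
Slope of log2(FPKM + 1) per 24 hr with its 95% interval (horizontal axis) for each gene (vertical axis), control in grey and 6AN in red, filled where the adjusted p was at most 0.05. The filled points are *NADK2* in control at 0.22 and, in 6AN, *IDH1* at 0.15 and *IDH2* at -0.62.

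Ratios within a library do not depend on the scaling of the tables. The ratio of *IDH2* to *IDH1* was 0.317 at 0 hr and 0.328 at 44 hr in control, with a range of 0.236 to 0.381. In 6AN it was 0.557 at 0 hr and 0.165 at 44 hr, which were also the highest and lowest values of the series. The ratio was thus above the control range at the start and below it at the end.

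The ratio of *NADK2* to *NADK* was higher in 6AN at 12 of 12 time points, which follows from *NADK2* being higher and *NADK* lower at all 12. It ranged from 0.652 to 1.193 in control (median 0.905) and from 1.05 to 1.495 in 6AN (median 1.27), so that in 6AN the mitochondrial kinase gene was the higher of the pair in every library. *ME2* over *ME1* was also higher in 6AN at 12 of 12 time points, with ranges of 1.58 to 2.95 in control and 3.07 to 4.18 in 6AN that did not overlap. The summed level of the 3 cytosolic genes ranged from 57.8 to 70.1 FPKM in control and from 45.9 to 55.2 FPKM in 6AN. It was lower at all 12 time points, as it had to be, since each of the 3 genes was. *IDH1* was its largest part, with a control mean of 44.1 FPKM beside 64.6 FPKM for the sum. The sum of the 5 mitochondrial genes was 60.2 to 68.3 FPKM in control and 56.7 to 65.1 FPKM in 6AN, lower at 11 of 12.

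**Figure D4:**
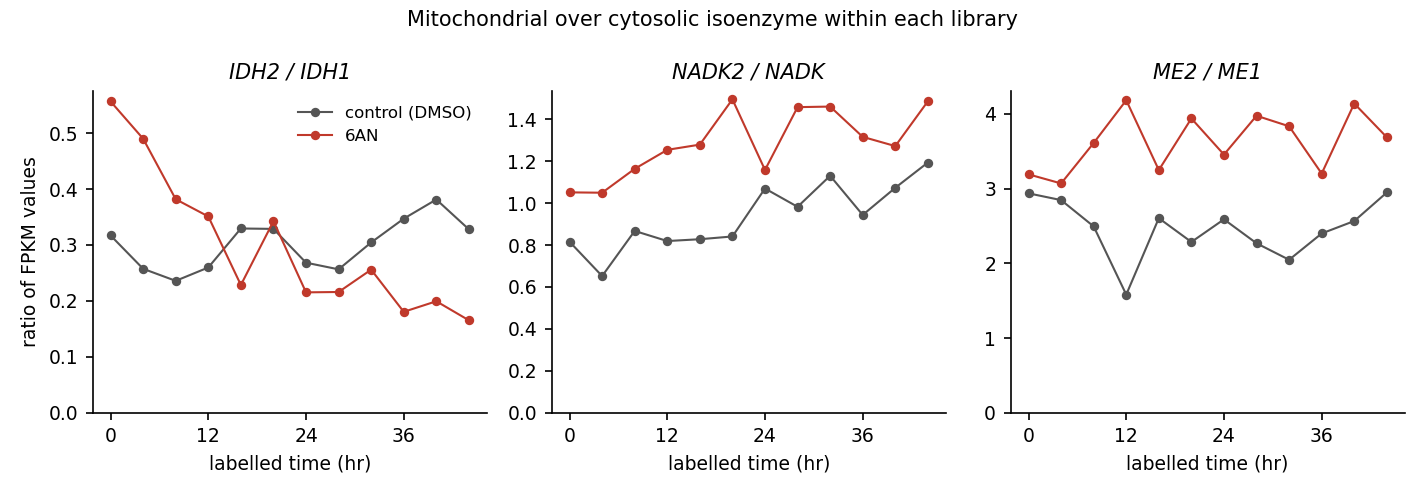
Ratio of FPKM values (vertical axes, from 0) of the mitochondrial over the cytosolic gene within each library against labelled time in hr (horizontal axes), control in grey and 6AN in red. *IDH2*/*IDH1* in 6AN goes from 0.557 to 0.165, and the other ratios are higher in 6AN at 12 of 12 time points.

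None of the 8 genes was called for a 24 hr rhythm at the threshold used. A permutation rank test against umbrella shapes at p of at most 0.01 called 0.965% of expressed loci in control and 0.913% in 6AN. It called 0 of 8 NADPH source genes in either. On data simulated from the control table, it called a similar share of unchanged loci, 0.957%. In 6AN the clock genes *ARNTL* and *NR1D1* also missed the threshold, at 0.0128 and 0.0158 (permutation rank test). Only a period of 24 hr was tested. The paper reports longer clock gene periods under the inhibitor. The lack of calls in 6AN therefore cannot decide whether these 8 genes were rhythmic there. After adjustment, at 0.05, the rank test called 0 loci in each table, with 762 in control and 652 in 6AN at an unadjusted p under 0.05, and the limma F test of the cosine called 1 and 0. The lowest values among the 8 genes were 0.021 for *ME3* and 0.028 for *IDH2* in control and 0.080 for *IDH1* in 6AN (permutation rank test, unadjusted). Leaving out 1 library brought the limma F test of the cosine, unadjusted, under the threshold for *IDH1* in 6AN, at 0.0033 without 16 hr and 0.0052 without 36 hr. It did the same for *IDH2* in control, at 0.0087 without 0 hr, 0.00995 without 24 hr, and 0.0093 without 32 hr.

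The locus most like each gene over the 24 libraries was sought after centring log2 values within each condition. This is the highest Pearson's r among 15339 loci and is given as a description, since the points share library depth and culture. *IDH2* was most like *KIF22*, a mitotic kinesin, with r = 0.842, level with *DOT1L* (0.842) and *SUV39H1* (0.841). Means in control and 6AN were 29.3 and 17.8 FPKM for *KIF22*, 8.82 and 11.4 FPKM for *DOT1L*, and 13.1 and 9.37 FPKM for *SUV39H1*. *NADK2* was most like *PPP2R3C* (r = 0.881), a regulatory subunit of a protein phosphatase. *IDH1* was most like *ATP6V1C1* (r = 0.810), a subunit of the vacuolar proton pump. For *ME1* it was *COQ4* (r = 0.674), which acts in coenzyme Q synthesis, for *NNT* *NXPH4* (0.728), for *NADK* *CYP27C1* (0.787), for *ME2* *ZNF619* (0.744), and for *ME3* *COMMD5* (0.727).

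The other genes of NADP metabolism were taken from lists by role. Among 3 genes of the oxidative PPP, *PGD*, which encodes the second NADPH-producing dehydrogenase of the pathway, had means of 99.6 FPKM in control and 128 FPKM in 6AN, with no overlap. *H6PD*, which acts in the endoplasmic reticulum, rose over time in control (slope 0.46, limma adjusted p = 0.0085).

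Of the 6 folate enzymes that handle NADPH or its substrates, 3 were higher and 1 lower in 6AN at all 12 time points, against 12.2% and 19.2% of all expressed loci. The mitochondrial *MTHFD2* had means of 91.1 FPKM in control and 161 FPKM in 6AN, and *MTHFD1L* 67.8 and 101 FPKM, both with no overlap. *ALDH1L2*, which releases mitochondrial NADPH from formyl-tetrahydrofolate, had 2.03 and 3.58 FPKM. The cytosolic *MTHFD1* was lower in 6AN, with 80.2 and 54.4 FPKM and no overlap. Without overlap, 2 of the 6 were higher and 1 lower, beside 5.44% and 9.57% of all expressed loci. Over time in 6AN, 3 of the 6 rose and 1 (*ALDH1L1*) fell, beside 9.83% and 11.8% of all expressed loci.

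Among 13 genes that make or move citrate, isocitrate, and malate, 0 were higher and 6 were lower in 6AN at all 12 time points (12.2% and 19.2% of all expressed loci). The lower ones included *ACO1*, the cytosolic aconitase that supplies IDH1 with isocitrate, with means of 48.2 FPKM in control and 36.9 FPKM in 6AN, and *MDH1*, the cytosolic malate dehydrogenase, with 94.3 and 68.9 FPKM. *SLC25A10*, the dicarboxylate carrier that moves malate across the inner mitochondrial membrane, had 30.1 and 15.8 FPKM and fell over time in 6AN (slope -0.38 per 24 hr, limma adjusted p = 0.012). *ACLY* fell over time both in 6AN (slope -0.17, limma adjusted p = 0.0016) and in control (slope -0.20, limma adjusted p = 0.0048). Thus 2 of the 13 fell in 6AN, beside 11.8% of all expressed loci. *ACO1*, *MDH1*, *SLC25A10*, and *ACLY* did not overlap between conditions, whereas *FH* and *SLC25A1* did. Of all expressed loci, 9.57% were lower without overlap.

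Of 10 genes that spend NADPH or remove the phosphate of NADP, 3 were higher and 3 lower in 6AN at all 12 time points, beside the same 12.2% and 19.2% of all loci. The higher ones were *GSR* (27.1 and 36.2 FPKM, no overlap), which reduces glutathione, *TXNRD1* (71.1 and 99.2 FPKM), which reduces thioredoxin, and *NOCT* (5.12 and 6.66 FPKM), an NADP phosphatase. The lower ones were *NQO1* (40.9 and 20.6 FPKM, no overlap), *FASN*, and the mitochondrial *TXNRD2*. *GSR* and *TXNRD1* also rose over time in 6AN, by 0.15 and 0.20 log2 per 24 hr (limma adjusted p = 0.030 and 0.0030). In all, 3 of the 10 rose and 2 fell in 6AN, beside 9.83% and 11.8% of all expressed loci. Of the 6 genes of NAD supply, 1 was higher in 6AN at all 12 time points and 0 were lower, beside 12.2% and 19.2% of all loci. The higher one was *NAMPT*, the rate-limiting enzyme of NAD salvage (21.6 and 25.5 FPKM). *NAMPT* and *NADSYN1* rose over time in 6AN by 0.18 and 0.25 log2 per 24 hr (limma adjusted p = 0.010 and 0.0067).

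**Figure D5:**
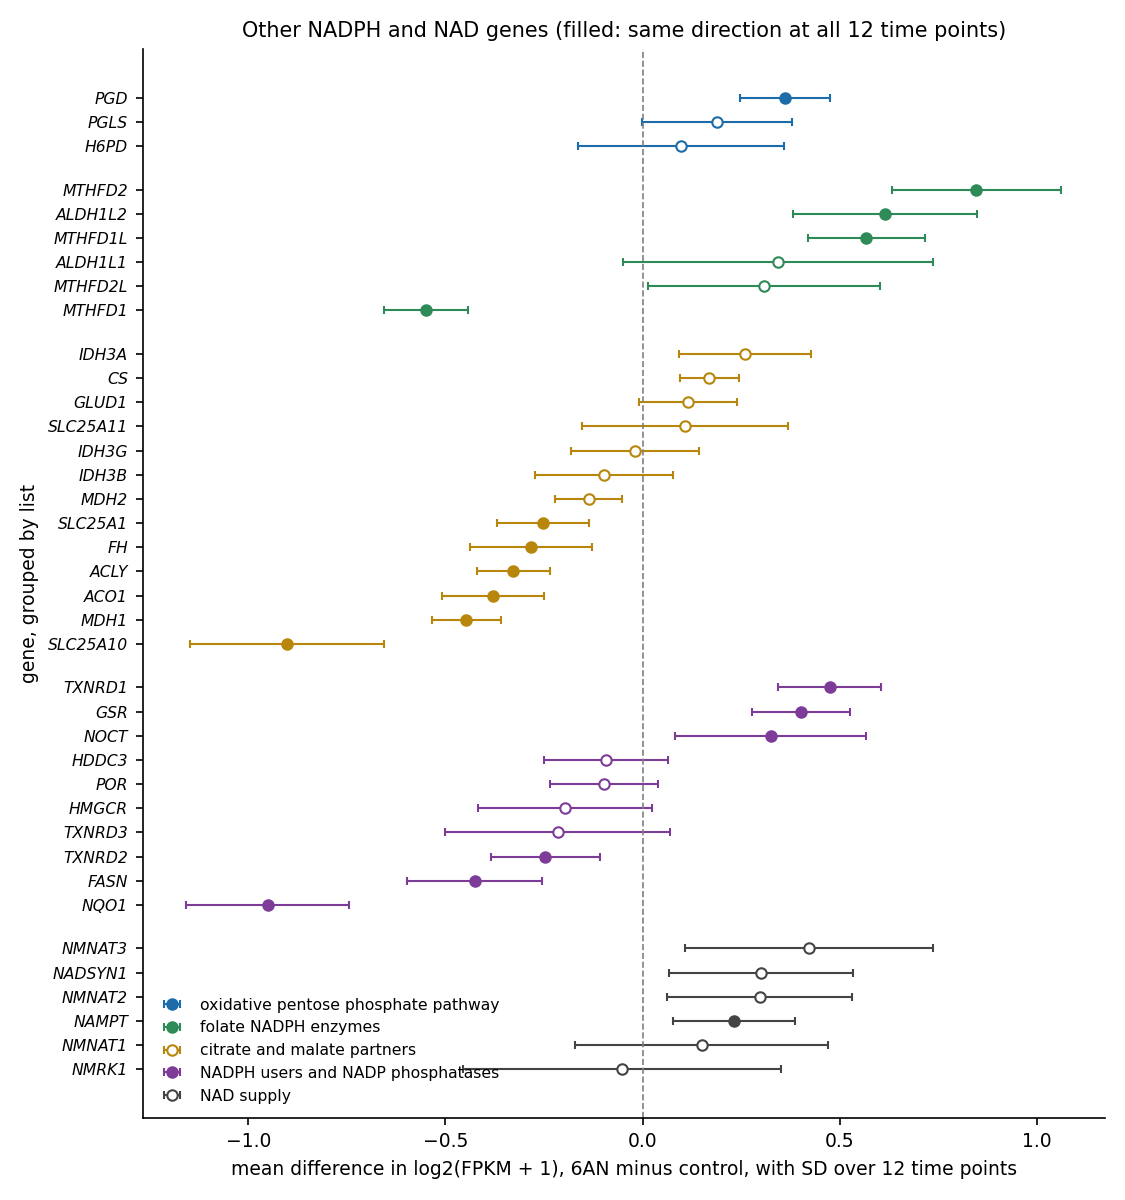
Mean difference in log2(FPKM + 1) between 6AN and control with its SD over 12 time points (horizontal axis) for the genes of the 5 other lists (vertical axis, coloured by list), filled where all 12 time points had the same direction. *MTHFD2* stands at 0.85, *SLC25A10* at -0.90, and *NQO1* at -0.95.

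Binding of BMAL1 and CLOCK, the activators of the clock, was read as the positions of peaks called by the authors in each library. A peak lay within 10 kb of 1 of the 8 loci, *IDH1*, against 30.7% of all expressed loci. It was called for BMAL1 in control alone, at chr2:208255062-208255262 (hg38), with a peak score of 14.1. Its centre was 91 bp upstream of the *IDH1* start used for the sequence above. It overlapped the 250 upstream bases of that start by 191 bp and so covered the capital letters of the *IDH1* sequence above. A further BMAL1 peak, called in 6AN alone with a score of 20.3, lay 10.8 kb from the locus. BMAL1 peaks of 6AN lay 26.7 kb from the *NADK* locus and 40.5 kb from the *NADK2* locus, measured to the nearest edge. Both lay beyond the end of the gene, on the side away from its start. The second ended at chr5:36152093, just before the annotated *SKP2* gene, which begins at chr5:36152111 on the plus strand. None of the 3 E-boxes shown for *NADK*, *NADK2*, and *NNT* lay under a peak. Of the sites shared by BMAL1 and CLOCK, 0 of 147 in control and 0 of 439 in 6AN were assigned to one of the 8 genes or lay within 50 kb of their loci. With 1 library for each antibody and condition, peaks present in only one condition have no replicate check.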

How the data were processed

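RNA-seq and ChIP-seq of *Bmal1*:*luc* U2OS cells were used as processed by the authors. For RNA-seq, the authors deposited FPKM per locus, normalized separately for control and 6AN across the 12 libraries of each table. For ChIP-seq, the authors deposited HOMER peak lists with a peak score, merged at 200 bp, and lists of shared sites. The submitters' processing notes name Bowtie, TopHat, Cufflinks, Bowtie2, and HOMER on hg38, with versions not given in the sources used here. RNA was extracted in triplicate according to the methods, and whether extracts were pooled is not given. Depth beyond estimated relative values is unknown, so no counting interval was computed. All columns that hold values of single samples had a sample.

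Groups were taken from the labels. The 8 genes and the other lists were chosen with earlier results of these data known. From the other lists, the genes named were drawn from those called in a comparison or at the extremes of a list. Not every gene with a called trend over time is named. Trends were fitted with limma 3.58.1 in R 4.3.3 (eBayes with trend) on log2(FPKM + 1), and rhythms with a rank test built after RAIN (18 umbrella shapes with rises of 8, 12, or 16 hr, and 1000000 random orders). Both were tested on data simulated from the control table. Among 200 changed loci, limma called 98 slopes and the rank test 109 rhythms, with 1 and 143 of 14939 unchanged loci called. The limma F test of the cosine called 164 of the 200 rhythms and 147 unchanged loci. Python 3.11.15, NumPy 2.4.6, pandas 2.3.3, SciPy 1.17.1, and matplotlib 3.10.9 were used. Alternatives covered scaling, the pseudocount (0.1), filters, time windows, rhythm tests, peak distances, and leaving out each time point. Histone mark signal at shared sites was not used here, and some genes of the other lists are not reported here.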

Additional observations from a re-analysis of the deposited data

How the results depend on the processing

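Between conditions, the number of loci called higher in 6AN was 2991 with CT24 to CT44 only, and 834 were higher and 1468 lower when the ranges were required not to overlap. Leaving out a time point moved no such count by over 1.5 times, and no alternative turned the direction of a gene called between conditions or of a called slope. The loci rising in control numbered 227 without a filter and 205 for the second against the first cycle, and 202 to 297 when 1 library was left out. Those falling numbered 219 to 396 in control and 1065 to 1889 in 6AN, where the count was lowest without 0 hr. The slope of *IDH1* in 6AN kept an adjusted p of 0.0036 to 0.029 in limma fits under other settings. Rhythm counts in control and 6AN were 762 and 652 at p of at most 0.05, 293 in 6AN by the limma F test, and 146 to 256 and 250 to 442 by that test without 1 library. Within 50 kb, 3 of 8 loci had a peak, against 45.3% of all expressed loci. The cause of these shifts was not tested. No paired test between conditions was run because the tables were normalized separately. With no replicate libraries, small differences such as those of *NADK* and *ME2* have no error from repeated cultures, and the level of *ME3* is too low for its differences to be read closely.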
